A study of Homo sapiens with 16 samples.

Results

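The glutathione peroxidases described here are GPX1, GPX2, GPX3, GPX4 and GPX8, 5 of the 18227 genes measured in RNA-seq libraries of 2 human lung carcinoma lines, A549 and H2023. They were taken by gene symbol, and all 5 had values in all 16 libraries. GPX5, GPX6 and GPX7, the other genes of the human family, were not analysed here. The family was selected on the measured TPM of GPX2 in these same libraries, so every value of GPX2 below is a description and carries no test. The tests concern the other 4 members, whose values were also known when the family was picked.

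The study deleted Regnase-1, the product of ZC3H12A, an RNase that degrades mRNAs of inflammatory proteins. Each line was unedited (wild-type) or a Regnase-1 knockout, and was grown either under normal conditions (3 days) or in a culture that enriches for stem-like cells (7 days), labelled Onco and called oncosphere culture here. The 8 groups were therefore A549 wild-type and knockout in normal culture, A549 wild-type and knockout in oncosphere culture, and the same 4 groups of H2023, with 2 libraries each. The knockout libraries of a line come from 1 clone, so the deletion and the clone cannot be told apart, and the days in culture and the culture condition change together. The labels do not say that the 2 libraries of a group come from separate cultures, so the p-values measure the spread between these libraries, which may be technical. With 2 libraries a group, a lack of overlap is a description and not a test, and it was not counted over all genes.

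Glutathione peroxidases reduce hydrogen peroxide and organic hydroperoxides with electrons taken from glutathione. Most human members are selenoproteins: the ribosome reads an in-frame UGA codon of their mRNA as selenocysteine, which sits in the active site, and a minority carry cysteine there. GPX1 is the widespread cytosolic enzyme and GPX2 an epithelial form first known from the gut. GPX3 is secreted, GPX4 reduces lipid hydroperoxides within membranes and protects cells from ferroptosis, and GPX8 is a membrane protein of the endoplasmic reticulum. GPX2 is a known target of NRF2, the transcription factor of the oxidative stress response, and lung carcinoma lines often carry an active NRF2 pathway.

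The codon that divides the 5 members into selenoproteins and a cysteine enzyme is shown with the 18 coding bases on each side of it, 5′ to 3′ on the sense strand, from GENCODE release 29 on GRCh38. Capitals mark that codon, which is TGA in GPX1, GPX2, GPX3 and GPX4 and TGC, cysteine, in GPX8.
GPX1: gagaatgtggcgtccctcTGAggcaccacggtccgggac
GPX2: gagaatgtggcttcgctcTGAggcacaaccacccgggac
GPX3: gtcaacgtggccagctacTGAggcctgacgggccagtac
GPX4: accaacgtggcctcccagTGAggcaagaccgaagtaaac
GPX8: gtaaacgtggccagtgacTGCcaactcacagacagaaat
Of the 36 flanking bases, GPX1 and GPX2 share 30, the most of any pair, and GPX2 and GPX8 share 14, the fewest. The codon lies at chr3:49358132-49358134 on the minus strand in GPX1, in exon 1 of 2. In GPX2 it lies at chr14:64942607-64942609 on the minus strand, in exon 1 of 2. The GPX3 codon is at chr5:151025469-151025471 on the plus strand, in exon 2 of 5, the GPX4 codon at chr19:1105403-1105405 on the plus strand, in exon 3 of 7, and the GPX8 codon at chr5:55161024-55161026 on the plus strand, in exon 2 of 3.

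The start of GPX2 carries a match to the core of the antioxidant response element, the sequence bound by NRF2 with small MAF proteins. The letters TGACNNNGC were searched on both strands of the 250 bases upstream of each RefSeq start on GRCh38.p14, a search added with the GPX2 values already known. GPX2 had 1 match and the windows of the other 4 members had none, while 3830 of 35116 promoter windows, 10.9%, held the motif. The match is shown in capitals with 10 bases on each side, on the minus strand at chr14:64942849-64942877, as read along the gene.
GPX2 upstream site: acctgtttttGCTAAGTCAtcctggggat
The capitals are the reverse complement of the searched letters and lie 114 to 122 bases upstream of the start. A match of letters does not show binding, and no binding was measured.

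Values are TPM (transcripts-per-million), the share of a library's length-scaled reads that falls on a gene, rescaled to a fixed total, as the authors deposited them. TPM keeps no read depth, so the counting error behind a value is unknown. The number of genes at 1 TPM or more was 13824 to 14508 per library. The summed share of TPM on genes of the mitochondrial genome was 10.3% to 18.7% in the normal-culture libraries and 19.5% to 25.6% in the oncosphere libraries. The ZC3H12A transcript was lower in the knockout libraries only in A549 normal culture, at 16.90 and 19.93 TPM against 30.72 and 34.88 TPM. It was higher in both libraries labelled knockout in A549 oncosphere culture (60.17 and 55.60 against 48.48 and 49.17 TPM), H2023 normal culture (41.48 and 41.54 against 26.78 and 29.85 TPM) and H2023 oncosphere culture (94.61 and 69.18 against 32.54 and 26.41 TPM). A transcript level need not follow a small edit of the coding sequence, so "knockout" below stands for libraries labelled knockout. Of the epithelial markers, KRT8 and KRT18 were at 666 TPM or more in every library, while EPCAM and KRT19 were under 1 TPM in A549 knockout normal culture. Of 10 markers of leukocytes, endothelium and fibroblasts, 4 were measured, and their sum of 31.6 to 184 TPM was mostly CD68.

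The 5 members differed widely in level and in how much that level varied. TPM is scaled by transcript length, so genes can be set side by side: in A549 wild-type normal culture GPX2 averaged 286 TPM, GPX4 244 TPM, GPX1 114 TPM, GPX8 46.4 TPM and GPX3 5.62 TPM. The highest group mean of GPX2 was 316-fold its lowest, against 9.45-fold for GPX3, 3.24-fold for GPX1, 2.63-fold for GPX4 and 2.52-fold for GPX8. Ranked from the highest TPM downwards within a library, GPX2 ran from rank 48 to rank 9848. GPX4 stayed between ranks 225 and 668, and GPX3 between ranks 6887 and 13913. The family held a member whose rank stayed high in every library, GPX4, and a member that moved from among the most abundant transcripts to a middling one, GPX2.

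**Figure D1:**
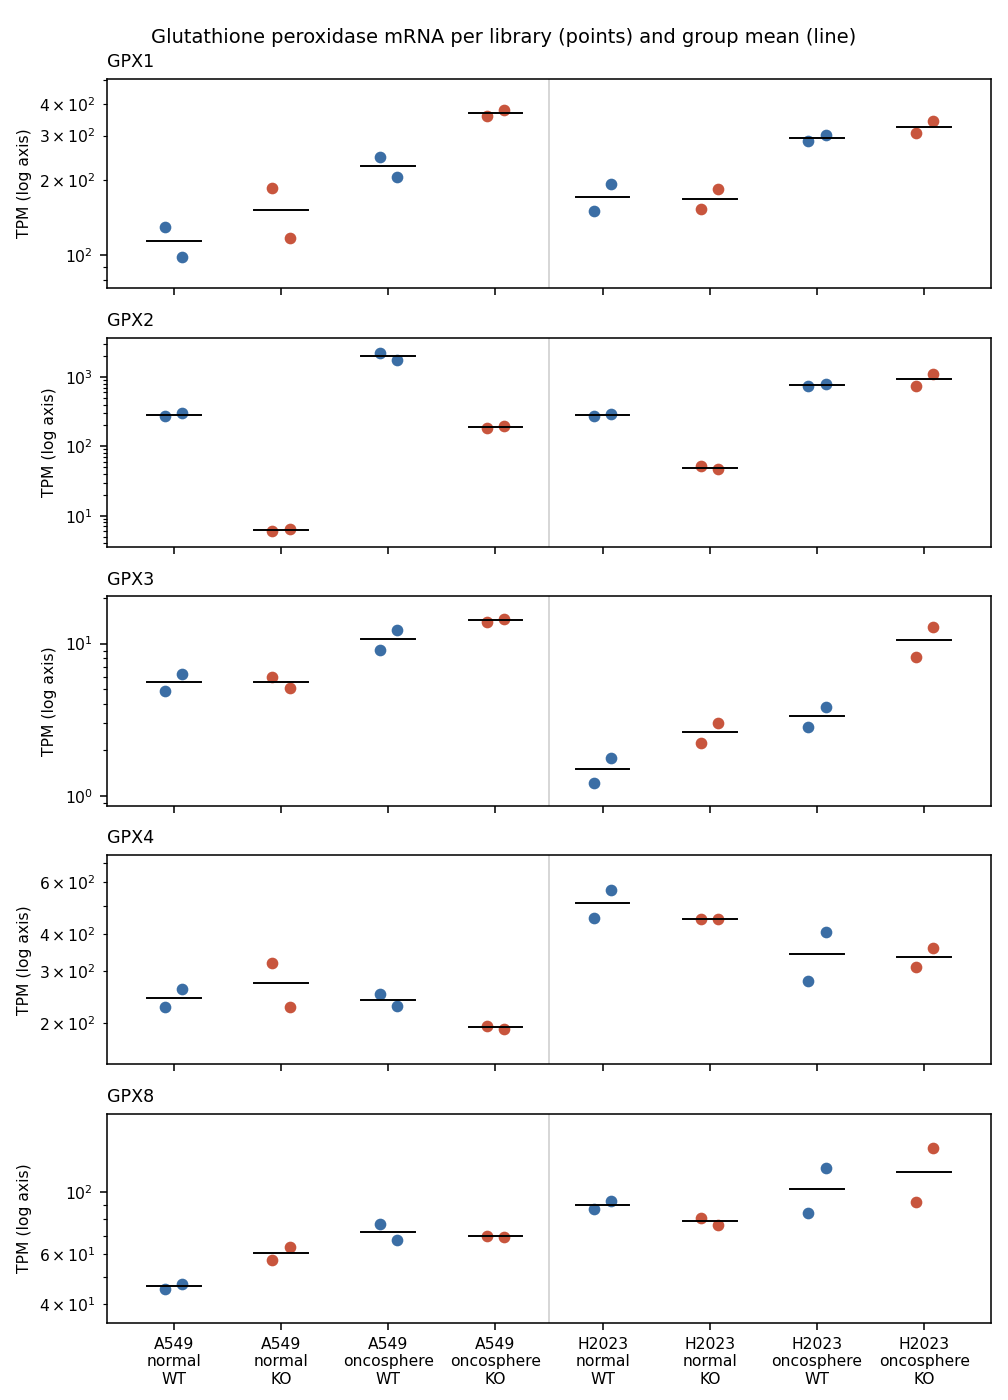
TPM (log axis) of each glutathione peroxidase in each of the 16 libraries, arranged by line, culture and genotype label (WT, wild type, blue; KO, labelled knockout, red), with 1 point per library and a line at the mean of each group. GPX2 spans 5.94 to 2201 TPM, while GPX4 spans 191 to 564 TPM and GPX3 stays at or below 14.45 TPM.

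The summed TPM of the 5 genes, a measure of the family's share of the mRNA pool, ranked the H2023 groups as GPX2 did. In A549 it did so except that knockout oncosphere stood above wild-type normal culture, where GPX2 was at 189 against 286 TPM. The sum was 695 ± 26.7 TPM (SD, n = 2) in A549 wild-type normal culture and 497 ± 110 TPM (SD, n = 2) in the knockout. The A549 oncosphere sums were 2523 ± 372 TPM in the wild type and 835 ± 15.8 TPM in the knockout (SD, n = 2 each). In H2023 the sums were 1054 ± 122 and 750.5 ± 15.2 TPM in normal culture and 1507 ± 171 and 1719 ± 364 TPM in oncosphere culture, wild type first (SD, n = 2 each). GPX2 made up 78.1% of the family's TPM in A549 wild-type oncosphere culture and 1.30% in A549 knockout normal culture. GPX4 made up 54.8% in the latter group, and in H2023 normal culture it was the largest contributor in both genotypes, at 48.2% in the wild type and 60.2% in the knockout. In A549 knockout oncosphere culture the largest share was that of GPX1, 44.2%.

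**Figure D2:**
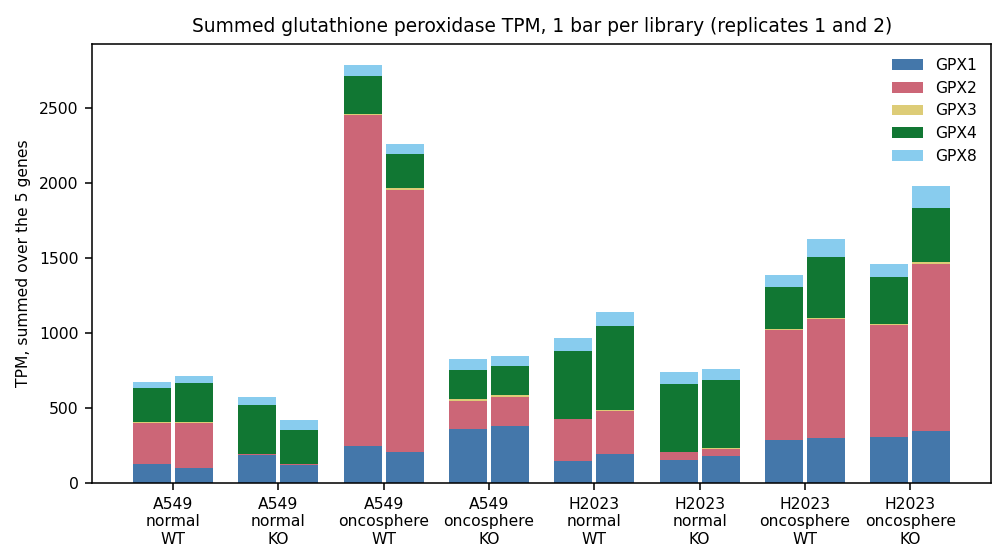
TPM of the 5 glutathione peroxidases stacked in 1 bar per library, with the 2 libraries of each of the 8 groups side by side. On average GPX2 accounts for 78.1% of the stack in A549 wild-type oncosphere culture and for 1.30% in A549 knockout normal culture.

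GPX2 was far lower in the knockout libraries than in the wild type in 3 of the 4 comparisons. In A549 normal culture it was at 269.63 and 301.44 TPM in the wild-type libraries and at 5.94 and 6.53 TPM in the knockout libraries. Under oncosphere culture A549 gave 2201.09 and 1744.57 TPM in the wild type and 184.75 and 193.24 TPM in the knockout. In H2023 normal culture it was at 275.42 and 289.61 TPM in the wild type and 51.84 and 46.52 TPM in the knockout. The groups do not overlap in any of these 3, and the knockout means were 45.8-fold, 10.4-fold and 5.74-fold lower. In H2023 oncosphere culture the wild-type libraries were at 736.40 and 793.62 TPM and the knockout libraries at 745.46 and 1117.27 TPM, so the groups overlap and the mean was 1.22 times that of the wild type. On the log2(TPM + 1) scale, in the same order, the knockout minus wild-type differences were -5.31 ± 0.11, -3.37 ± 0.14, -2.50 ± 0.085 and 0.26 ± 0.24 (fold change ± SE). In the authors' deposited table, which works from read counts, the log2 fold changes of GPX2 were -5.40, -3.40, -2.55 and 0.20. In bulk RNA, fewer cells that express GPX2 and less GPX2 RNA per cell cannot be told apart.

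All 5 epithelial markers, like GPX2, had lower means in the A549 knockout in normal culture. In the other comparisons they moved in both directions. Their sum over 5 genes, almost all of it KRT8 and KRT18, was 7417 and 7626 TPM in the A549 wild-type normal libraries and 2523 and 1450 TPM in the knockout. There 0 passed as higher and 4 as lower, beside 10.8% of all genes, among them KRT19 at -2.47, KRT18 at -2.09 and KRT8 at -1.87 (limma, adjusted p = 0.0108, 0.0230 and 0.0206). CDH1 averaged 43.4 and 19.2 TPM and EPCAM 1.61 and 0.65 TPM, wild type first. Across the A549 oncosphere libraries the sum was 5230 and 6570 TPM against 4995 and 7195 TPM, and these groups overlap. In the same libraries KRT19 was at 46.81 and 101.25 TPM in the wild type and 3.29 and 5.92 TPM in the knockout, a log2 fold change of -3.68 (limma, adjusted p = 0.00819), and EPCAM had a fold change of -2.33 (limma, adjusted p = 0.00452). CDH1 went the other way there, at 73.10 and 62.42 TPM in the wild type and 84.49 and 79.02 TPM in the knockout, without overlap, and did not pass by limma. In H2023 normal culture the sum was 7299 and 5887 TPM in the wild type against 10677 and 9816 TPM in the knockout. The sum was higher there through KRT8 and KRT18, while KRT19 averaged 316 TPM in the wild type and 128 TPM in the knockout, EPCAM 19.0 and 13.7 TPM and CDH1 36.4 and 29.9 TPM. In the authors' deposited table KRT19 stood at -1.30 in that comparison (adjusted p = 1.67e-11). In H2023 oncosphere culture the sum was 3446 and 3420 TPM against 6553 and 7087 TPM. KRT19 averaged 424 and 651 TPM there, EPCAM 39.5 and 23.8 TPM and CDH1 19.3 and 17.6 TPM. CD68, which makes up most of the summed markers of other cells, fell by 1.97 on the log2 scale in A549 oncosphere culture (limma, adjusted p = 0.0131). The part of these markers in the GPX2 values was not tested.

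Oncosphere culture went with more GPX2 in all 4 pairings of line and genotype. The mean went from 286 to 1973 TPM in the A549 wild type, a ratio of 6.91, and from 6.24 to 189 TPM in the A549 knockout, a ratio of 30.3. In H2023 it went from 283 to 765 TPM in the wild type, a ratio of 2.71, and from 49.2 to 931 TPM in the knockout, a ratio of 18.9. In order from the lowest, the group means were A549 knockout normal, H2023 knockout normal, A549 knockout oncosphere, H2023 wild-type normal, A549 wild-type normal, H2023 wild-type oncosphere, H2023 knockout oncosphere and A549 wild-type oncosphere. The 2 wild-type normal groups overlap, as do the 2 H2023 oncosphere groups, and the other neighbours do not. The authors' deposited fold changes put the knockout effect on GPX2 higher in oncosphere than in normal culture by 2.00 ± 0.25 in A549 and by 2.75 ± 0.29 in H2023 (log2 difference ± SE), given as a description.

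GPX1, the cytosolic enzyme, was higher in the A549 knockout in oncosphere culture. The wild-type libraries were at 247.54 and 206.10 TPM and the knockout libraries at 360.16 and 377.84 TPM, without overlap, a log2 fold change of 0.71 ± 0.12 (SE). It was the only 1 of the 4 tested members to pass in that comparison (limma with Benjamini-Hochberg adjustment over 18227 genes, adjusted p = 0.0241), where 13.2% of all genes passed. The call rests on each of the 4 libraries: without any 1 of them the adjusted p was 0.0921 to 0.184, and in a fit over the 8 A549 libraries it was 0.0559. In the authors' deposited table GPX1 passed in the same comparison, at 0.70 (log2 fold change, adjusted p = 1.23e-04), where 20.7% of genes passed.
In A549 normal culture GPX1 was at 129.20 and 98.79 TPM in the wild type and 184.92 and 117.55 TPM in the knockout, and the groups overlap. In H2023 normal culture it was at 149.75 and 192.39 TPM against 152.69 and 183.75 TPM. In H2023 oncosphere culture it was at 285.40 and 302.15 TPM against 306.29 and 343.69 TPM, without overlap. Its log2 fold change there, 0.14 ± 0.11 (SE), did not pass (limma, adjusted p = 0.574).

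GPX8, the endoplasmic reticulum enzyme with cysteine in place of selenocysteine, passed in the authors' deposited table for A549 normal culture but not in limma on TPM of the same 4 libraries. The wild-type libraries were at 45.44 and 47.33 TPM and the knockout libraries at 57.26 and 63.86 TPM, without overlap. The fold change on log2(TPM + 1) was 0.38 ± 0.10 (SE) and did not pass (limma, adjusted p = 0.0769), in a comparison where 10.8% of genes and none of the 4 tested members passed. In a limma fit over the 8 A549 libraries it passed narrowly (adjusted p = 0.0484). In the authors' deposited table the log2 fold change of GPX8 was 0.69 with a standard error of 0.14 and an adjusted p of 1.96e-05. GPX8 was the 1 tested member that passed there, beside 22.1% of all genes. The oncosphere values of GPX8 in A549 were 76.91 and 67.40 TPM in the wild type and 69.56 and 69.32 TPM in the knockout, and the wild-type libraries lie on both sides of the knockout libraries. The difference between the cultures, taken from the authors' deposited fold changes, was -0.76 ± 0.21 (SE, adjusted p = 0.00848, a two-sided normal test adjusted over all genes), in a test that 8.31% of all genes passed. The same difference as a limma interaction on log2(TPM + 1) was -0.43 ± 0.15 (SE) with an adjusted p of 0.122. In H2023 normal culture GPX8 was at 86.61 and 92.49 TPM in the wild type and 80.82 and 76.20 TPM in the knockout, without overlap. The H2023 oncosphere groups, 83.93 and 121.14 TPM against 91.60 and 142.45 TPM, overlap. GPX8 overlaps CDC20B on the opposite strand, and whether counting used the strand is not given in the sources used here.

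GPX3 and GPX4 did not pass in any knockout comparison. GPX3, the secreted enzyme, was at 2.82 and 3.84 TPM in the H2023 wild type in oncosphere culture and at 8.12 and 12.91 TPM in the knockout, without overlap. Its log2 fold change there, 1.39 ± 0.29 (SE), was the highest knockout difference among the 4 tested members and did not pass (limma, adjusted p = 0.233). In H2023 normal culture GPX3 was at 1.22 and 1.78 TPM against 2.21 and 3.01 TPM, also without overlap, and in A549 normal culture its 4.91 and 6.33 TPM enclosed the 6.05 and 5.12 TPM of the knockout. The A549 oncosphere libraries had GPX3 at 9.13 and 12.21 TPM against 13.91 and 14.45 TPM, without overlap. The authors' deposited mean normalised count of GPX3 was 17.2 in H2023 normal culture and 66.8 in H2023 oncosphere culture, against 99.8 and 239 in A549.
GPX4, the membrane lipid hydroperoxide enzyme, was at 227.35 and 260.36 TPM in the A549 wild type in normal culture and at 320.19 and 226.25 TPM in the knockout. In A549 oncosphere culture it was at 250.91 and 229.61 TPM against 195.67 and 191.48 TPM, without overlap, a fold change of -0.31 ± 0.098 (SE) that did not pass (limma, adjusted p = 0.103). In H2023 it was at 455.17 and 563.67 TPM against 452.20 and 451.72 TPM in normal culture, without overlap. In H2023 oncosphere culture it was at 277.95 and 407.39 TPM against 309.89 and 359.36 TPM, where the wild-type libraries enclose those of the knockout.

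None of the 4 tested members passed in either H2023 knockout comparison, and neither did any other gene by limma. With 2 libraries against 2, limma passed 0% of genes both under normal and under oncosphere conditions, although 3314 and 2828 genes had an unadjusted p under 0.05. None of the 4 members had such a p in normal culture, and GPX3 alone had in oncosphere culture (unadjusted p = 0.00964 from the limma fit across all genes). The authors' deposited table passed 10.8% and 5.07% of genes in these comparisons and none of the 4 members. The difference of the knockout effect between cultures passed for 0.39% of genes in H2023 and for none of the 4 members.

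**Figure D3:**
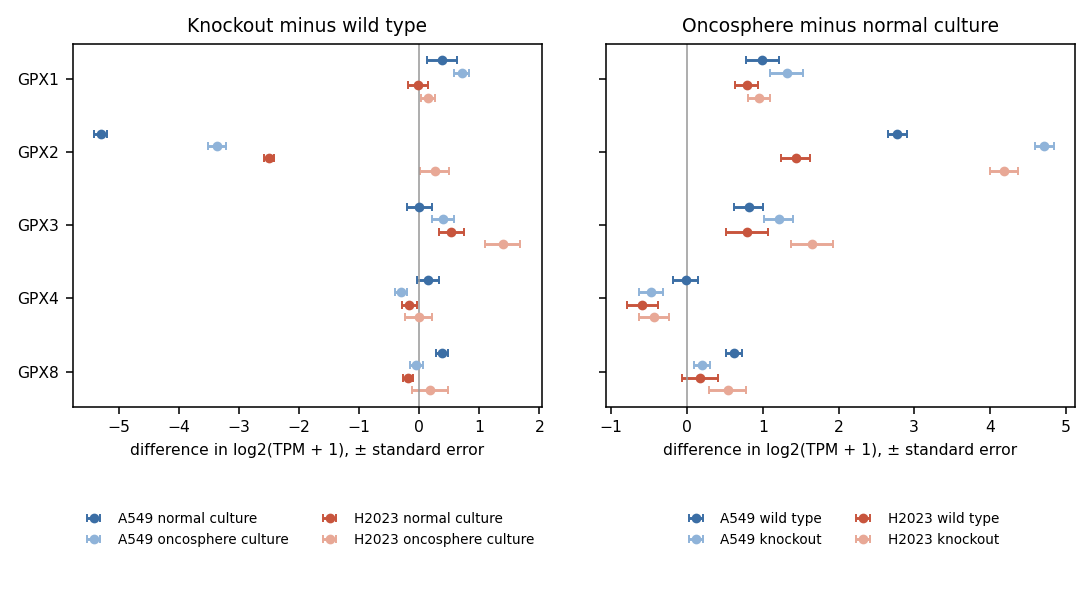
Log2 fold change on the log2(TPM + 1) scale with its standard error for each glutathione peroxidase, in the 4 knockout comparisons and the 4 culture comparisons. GPX2 reaches -5.31 in the A549 knockout in normal culture and 4.72 between cultures in the A549 knockout, and GPX1 lies above 0 in all 4 culture comparisons, from 0.79 to 1.32.

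Of the 4 tested members, GPX1 alone passed as higher in oncosphere culture in all 4 pairings of line and genotype. In the A549 wild type the normal libraries were at 129.20 and 98.79 TPM and the oncosphere libraries at 247.54 and 206.10 TPM, a log2 fold change of 0.99 ± 0.22 (SE, limma adjusted p = 0.00762). In the A549 knockout the fold change was 1.32 ± 0.22 (adjusted p = 0.00453), in the H2023 wild type 0.79 ± 0.15 (adjusted p = 0.016) and in the H2023 knockout 0.95 ± 0.15 (adjusted p = 0.00643). None of the 4 pairs of groups overlap. Without A549 wild-type normal replicate 2 the A549 wild-type call ended (adjusted p = 0.0519), as it did without A549 wild-type oncosphere replicate 1 (adjusted p = 0.0525). In the H2023 wild type it ended without normal replicate 1 (adjusted p = 0.0693) or oncosphere replicate 2 (adjusted p = 0.0704).
From the lowest, the group means of GPX1 were A549 wild-type normal (114 TPM), A549 knockout normal, H2023 knockout normal, H2023 wild-type normal, A549 wild-type oncosphere, H2023 wild-type oncosphere, H2023 knockout oncosphere and A549 knockout oncosphere (369 TPM). The 4 normal groups each overlap their neighbour, and the 4 oncosphere groups do not overlap each other.

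GPX3 and GPX8 rose with oncosphere culture in part of the pairings. In the A549 wild type GPX3 was at 4.91 and 6.33 TPM in normal and 9.13 and 12.21 TPM in oncosphere culture, a log2 fold change of 0.81 ± 0.20 (SE, limma adjusted p = 0.0117). It rose by 1.21 ± 0.20 (adjusted p = 0.00417) in the A549 knockout and by 1.65 ± 0.27 (adjusted p = 0.00739) in the H2023 knockout, where normal libraries held 2.21 and 3.01 TPM and oncosphere libraries 8.12 and 12.91 TPM. In the H2023 wild type the difference of 0.79 ± 0.27 did not pass (adjusted p = 0.0871). The A549 wild-type call ended without normal replicate 1 (adjusted p = 0.075) or oncosphere replicate 2 (adjusted p = 0.0713), and the H2023 knockout call without normal replicate 1 (adjusted p = 0.0559).
GPX8 was at 45.44 and 47.33 TPM in the A549 wild type in normal culture and at 76.91 and 67.40 TPM in its oncosphere libraries, a rise of 0.62 ± 0.11 (SE, limma adjusted p = 0.00238). In the A549 knockout the normal libraries held 57.26 and 63.86 TPM and the oncosphere libraries 69.56 and 69.32 TPM, and the difference was 0.20 ± 0.11 (SE), which did not pass (limma, adjusted p = 0.232). In H2023 the groups were 86.61 and 92.49 TPM against 83.93 and 121.14 TPM in the wild type, and 80.82 and 76.20 TPM against 91.60 and 142.45 TPM in the knockout, and neither difference passed.

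GPX4 passed in neither direction in any of the 4 culture comparisons. Its fold changes were -0.02 ± 0.16 and -0.47 ± 0.16 in the A549 wild type and knockout and -0.59 ± 0.20 and -0.44 ± 0.20 in H2023 (SE), with limma adjusted p values of 0.936, 0.0739, 0.0835 and 0.157. The median over all genes was itself -0.18 in the H2023 wild type and -0.12 in the H2023 knockout, and moved to -0.02 and 0.02 when mitochondrially encoded genes were taken out of the TPM total. GPX4 then stood at -0.34 and -0.21 in H2023, and its sign turned in the A549 wild type, to 0.12. A call for lower GPX4 appeared in the A549 knockout without normal replicate 2 (adjusted p = 0.0175). It also appeared in the H2023 wild type without oncosphere replicate 2 (adjusted p = 0.0369).
Counted over the 4 tested members, 3 were higher and 0 lower in the A549 wild type, beside 40.6% of all genes passing in either direction, and 2 and 0 in the A549 knockout, beside 20.8%. In H2023 1 was higher and 0 lower in the wild type, beside 21.4%, and 2 and 0 in the knockout, beside 26.9%. Of all genes, 721 were higher and 3180 lower in the H2023 wild type, and 1400 and 3495 in the H2023 knockout. The median fold change of the 4 was 0.72, 0.70, 0.48 and 0.74 in that order, against -0.01, -0.01, -0.18 and -0.12 over all genes. The count of the A549 wild type was 2 without any 1 of its 4 libraries, each time through GPX1 or GPX3, and in the A549 knockout GPX4 was added as lower without normal replicate 2. The count of the H2023 wild type ran from 0 to 1 and that of the H2023 knockout from 1 to 2 when single libraries were left out; the H2023 wild-type count fell to 0 without normal replicate 1. The mitochondrial share was also higher in the oncosphere libraries. With those genes out of the total, the fold changes of GPX1 were 1.13, 1.39, 1.03 and 1.17 and those of GPX3 0.96, 1.29, 1.02 and 1.89, in the same order.

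The wild-type lines differed in GPX3, GPX4 and GPX8 in normal culture. GPX8 was higher in H2023, at 86.61 and 92.49 TPM against 45.44 and 47.33 TPM, a log2 fold change of 0.93 ± 0.093 (SE, limma adjusted p = 2.68e-04). GPX4 was higher by 1.05 ± 0.17 (adjusted p = 0.0023), at 455.17 and 563.67 TPM against 227.35 and 260.36 TPM. GPX3 was lower in H2023, with a log2 fold change of -1.41 ± 0.22 (SE, limma adjusted p = 0.00183), at 1.22 and 1.78 TPM against 4.91 and 6.33 TPM. GPX2 stood at almost the same level in both lines, 283 and 286 TPM. The count of 2 higher and 1 lower of 4 stands beside 42.4% of all genes.
In oncosphere culture GPX3 was again lower in H2023, with a fold change of -1.43 ± 0.25 (SE, limma adjusted p = 0.00395). GPX1 was higher by 0.38 ± 0.12 (SE, limma adjusted p = 0.0444). The GPX1 call ended without A549 oncosphere replicate 2 (adjusted p = 0.211) and without H2023 oncosphere replicate 1 or 2 (adjusted p = 0.0853 and 0.146). GPX4, at 0.49 ± 0.18 (SE), did not pass (limma, adjusted p = 0.0651) but did without H2023 oncosphere replicate 1 (adjusted p = 0.0097). That count of 1 higher and 1 lower stands beside 42.5% of all genes, and GPX2 was lower in H2023, 765 against 1973 TPM.
In order of group means GPX3 ran from 1.5 TPM in H2023 wild-type normal through H2023 knockout normal, H2023 wild-type oncosphere, A549 knockout normal, A549 wild-type normal, H2023 knockout oncosphere and A549 wild-type oncosphere to 14.2 TPM in A549 knockout oncosphere. The 2nd and 3rd of these groups overlap, as do the 4th and 5th and the 6th and 7th. GPX4 ran from 194 TPM in A549 knockout oncosphere through A549 wild-type oncosphere, A549 wild-type normal, A549 knockout normal, H2023 knockout oncosphere, H2023 wild-type oncosphere and H2023 knockout normal to 509 TPM in H2023 wild-type normal. The 2nd to 6th of these each overlap their neighbours. GPX8 ran from 46.4 TPM in A549 wild-type normal through A549 knockout normal, A549 knockout oncosphere, A549 wild-type oncosphere, H2023 knockout normal, H2023 wild-type normal and H2023 wild-type oncosphere to 117 TPM in H2023 knockout oncosphere. Its 3rd, 4th and 5th groups overlap in turn, as do its 6th, 7th and 8th.

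Of 10922 genes with a mean of at least 5 TPM, 4 were named as most alike to each member whose group means range over at least 2 on the log2(TPM + 1) scale, which GPX2 and GPX3 did. Likeness was the root mean square difference of log2(TPM + 1), each gene centred on its own mean, over the 16 libraries. For GPX2 they were PI3 (0.81) and SLPI (0.99), 2 secreted protease inhibitors of epithelia, TRIM31 (0.97), a ubiquitin ligase, and AGR2 (1.02), a protein disulphide isomerase of secretory epithelia. GPX2 itself varied by 2.42 on that measure. AGR2 averaged 272 TPM in A549 wild-type normal culture, 17.4 TPM in the knockout, 2989 TPM in wild-type oncosphere culture and 415 TPM in the knockout there. SLPI was at 78.3 and 2.48 TPM, wild type first, in A549 normal culture and at 458 and 470 TPM in H2023 oncosphere culture, where GPX2 also differed little. PI3 was at 13.5 and 0.075 TPM in A549 normal culture.
For GPX3 they were TXNDC15 (0.40), MAGED2 (0.43), CST3 (0.44), a secreted cysteine protease inhibitor, and DUSP4 (0.45), a phosphatase of MAP kinases, while GPX3 itself varied by 0.87. These are descriptions over libraries that share 8 groups, with no test.

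**Figure D4:**
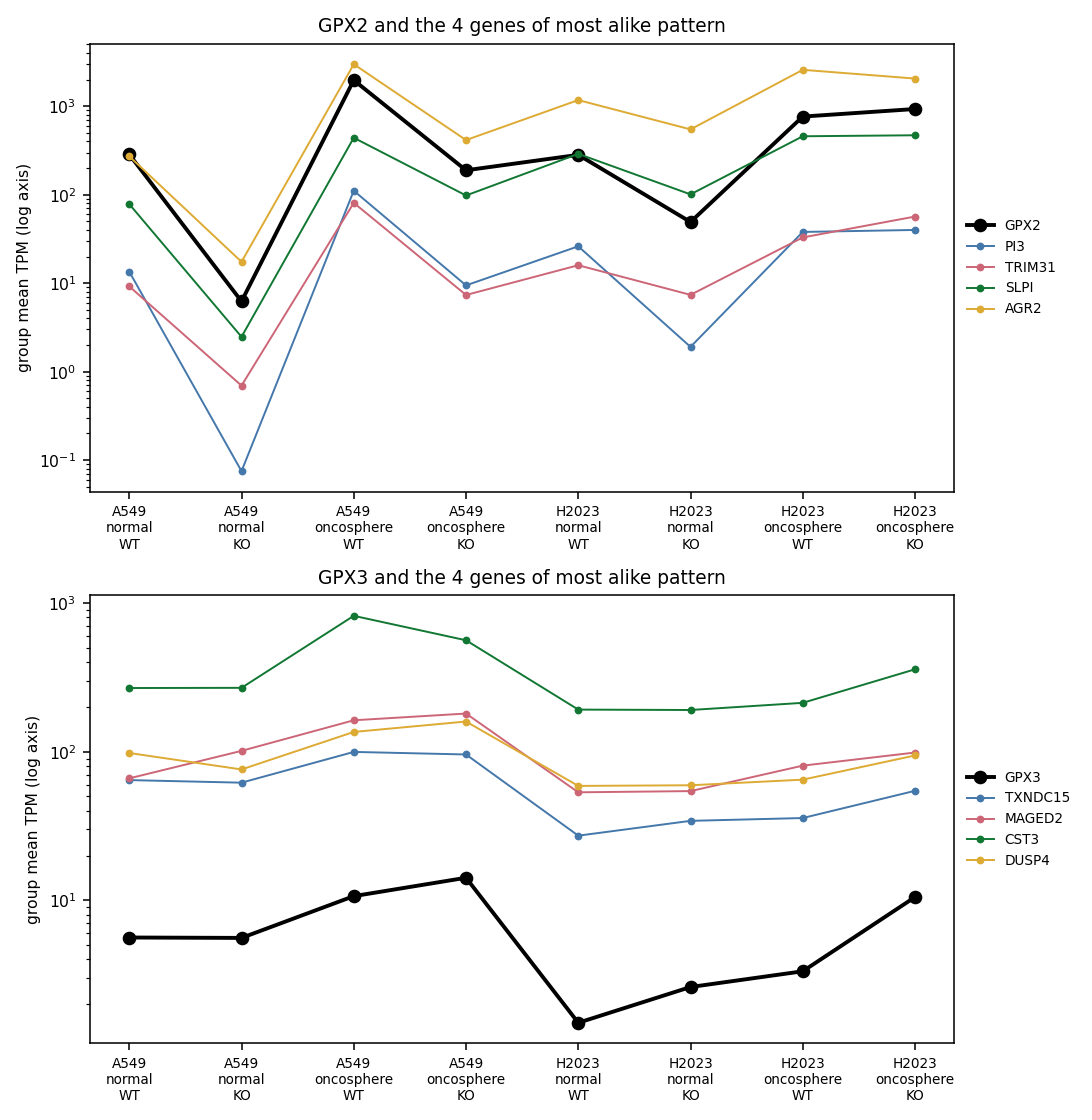
Mean TPM (log axis) in the 8 groups, 2 libraries each, of GPX2 and its 4 most alike genes (upper panel) and of GPX3 and its 4 (lower panel). GPX2, PI3, TRIM31, SLPI and AGR2 are each lowest in A549 knockout normal culture and highest in A549 wild-type oncosphere culture, except SLPI, which is highest in H2023 knockout oncosphere culture.

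The enzymes that make and recycle glutathione did not move as a block with the peroxidases. Of 14 measured genes of this list, 1 rose and 2 fell in the A549 knockout in normal culture: IDH1, a source of NADPH, rose by 1.09, and GGT1, which breaks down extracellular glutathione, fell by 1.63 on the log2 scale (limma, adjusted p = 0.0169 and 0.00518), where 10.8% of all genes passed. Under oncosphere culture 2 rose and 1 fell in the A549 knockout, among them GSR, glutathione reductase, at 0.60 (adjusted p = 0.0376) and CHAC1, which degrades glutathione, at -2.62 (adjusted p = 0.0151), beside 13.2% of all genes. In the A549 wild type, oncosphere culture went with 2 higher and 5 lower, among the latter GCLC, the catalytic subunit of the first enzyme of glutathione synthesis, at -1.36 (adjusted p = 0.00308). That is 7 of 14, near the 40.6% of all genes. In the A549 knockout 3 were higher and 1 lower, beside 20.8% of all genes. In the H2023 wild type and knockout 1 was higher and 5 lower in each, beside 21.4% and 26.9% of all genes. Most of all genes called there were also lower, 3180 and 3495 against 721 and 1400 higher. The list's medians in the A549 wild type and knockout were -0.18 and -0.12, against -0.01 over all genes in both. In the H2023 wild type and knockout they were -0.18 and -0.02, against -0.18 and -0.12 over all genes.

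Glutathione transferases, which use the same glutathione to conjugate other compounds, were more often higher than lower with oncosphere culture in A549. Of 14 measured, 10 were higher and 1 lower in the A549 wild type and 6 and 1 in the knockout, with median fold changes of 1.06 and 0.36 against -0.01 over all genes. The shares of all genes that passed were 40.6% and 20.8%. GSTA2 stood at 2.71 (limma, adjusted p = 1.21e-04) and GSTA1 at 2.00 (adjusted p = 6.03e-04) in the wild type, and MGST2 at 1.39 (adjusted p = 3.87e-04) in the knockout. GSTA2 and GSTA1 averaged only 0.03 and 0.06 TPM in A549 wild-type normal culture and 5.83 and 3.36 TPM in its oncosphere culture. Of the abundant transferases, GSTP1 went from 1433 to 883 TPM in the wild type and from 890 to 562 TPM in the knockout. MGST1 went from 564 to 833 TPM and from 699 to 949 TPM. In the H2023 wild type 2 were higher, GSTA1 at 3.08 and GSTA2 at 1.16 (adjusted p = 9.34e-04 and 0.00323), and 2 lower. In the H2023 knockout 5 were higher and 2 lower. The shares of all genes were 21.4% and 26.9%, so that the H2023 wild-type count over both directions lies near the share of all genes. Of all genes called in the H2023 wild type, 721 were higher and 3180 lower. In the A549 knockout in oncosphere culture 0 rose and 3 fell, GSTA2 at -2.44, GSTA1 at -1.82 and GSTP1 at -0.65 (limma, adjusted p = 0.00941, 0.0224 and 0.0189). In that knockout comparison 13.2% of all genes passed. GSTA1 and GSTA2 are near-identical copies whose reads may be split between them.

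Selenoproteins outside the family, which draw on the same selenocysteine machinery as GPX1 to GPX4, were more often higher than lower in oncosphere culture. Of 17 measured, 6 were higher and 1 lower in the A549 wild type, 8 and 0 in the A549 knockout, 5 and 1 in the H2023 wild type and 6 and 1 in the H2023 knockout. The shares of all genes that passed were 40.6%, 20.8%, 21.4% and 26.9%, so the number called in the A549 wild type is at the share of all genes. The list's medians were 0.36, 0.53, 0.23 and 0.39, against -0.01, -0.01, -0.18 and -0.12 over all genes. SELENOW, a small cytosolic selenoprotein, was higher in all 4, by 1.52, 1.86, 1.61 and 1.67 (limma, adjusted p = 1.45e-04, 2.40e-04, 0.00252 and 0.00116). The thioredoxin reductase TXNRD1, also a member of the peroxide list below, stood at -1.35 in the A549 wild type (adjusted p = 6.71e-04). In the A549 knockout 1 of the 17 rose and 1 fell in normal culture, and 4 rose and 0 fell in oncosphere culture, beside 10.8% and 13.2% of all genes. SELENOI was the 1 lower, at -0.66, and TXNRD1 and SELENOH rose in oncosphere culture by 0.77 and 0.58 (limma, adjusted p = 0.0457, 0.0334 and 0.0190). DIO2, the deiodinase that activates thyroid hormone, rose in the A549 knockout by 4.0 in normal culture and by 2.81 in oncosphere culture (adjusted p = 0.0123 and 0.0103). It was at only 0.40 and 1.56 TPM in the A549 wild-type normal libraries. In the H2023 knockout the authors' deposited table has DIO2 lower, at -0.60 in normal and -1.14 in oncosphere culture (adjusted p = 8.62e-05 and 0.0161). DIO2 was also the 1 lower with oncosphere culture in H2023, at -2.14 in the wild type and -2.59 in the knockout (limma, adjusted p = 0.00453 and 0.00156). Of 9 genes of selenocysteine incorporation and selenium supply, 1 was higher and 3 lower with oncosphere culture in the A549 wild type, 0 and 1 in the A549 knockout, 0 and 3 in the H2023 wild type and 1 and 2 in the H2023 knockout. The list holds LRP8, an uptake receptor of selenoprotein P, which was the 1 higher in the H2023 knockout at 0.50 (limma, adjusted p = 0.0124), and SCLY, a lyase that recycles selenium, at -0.77 in the A549 wild type (limma, adjusted p = 0.0139).

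Other enzymes that remove peroxide or superoxide moved in both directions. Of 15 measured, 0 rose and 2 fell in the A549 knockout in normal culture, SOD2, mitochondrial superoxide dismutase, at -1.41 and SRXN1, sulphiredoxin, at -0.59 (limma, adjusted p = 0.00518 and 0.0441). In the oncosphere comparison 4 rose and 2 fell, with catalase, CAT, at 0.82, TXNRD1 at 0.77 and glutaredoxin, GLRX, at -0.99 (adjusted p = 0.0105, 0.0334 and 0.00566). The shares of all genes were 10.8% and 13.2%. Between cultures 3 were higher and 5 lower in the A549 wild type, 4 and 0 in the A549 knockout, 2 and 2 in the H2023 wild type and 3 and 2 in the H2023 knockout. With 40.6%, 20.8%, 21.4% and 26.9% of all genes passing, these counts stand near or somewhat above the background.

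GPX4 is best known from ferroptosis, and genes of ferroptosis and iron handling were counted in the same comparisons. Of 12 measured, 4 were higher and 6 lower with oncosphere culture in the A549 wild type, beside 40.6% of all genes. Of these ACSL4, which loads membranes with oxidisable fatty acids, stood at 2.13 and SLC40A1, the iron exporter ferroportin, at 2.83 (limma, adjusted p = 1.01e-04 and 1.60e-04). The counts were 3 and 1 in the A549 knockout, beside 20.8% of all genes, 2 and 1 in the H2023 wild type, beside 21.4%, and 3 and 2 in the H2023 knockout, beside 26.9%. The H2023 wild-type count lies near the background. In the knockout comparisons, 1 rose and 1 fell in A549 normal culture, beside 10.8% of all genes, ACSL4 at 1.15 and DHODH at -1.11 (adjusted p = 0.0289 and 0.0261). In A549 oncosphere culture 2 rose and 1 fell, beside 13.2% of all genes: HMOX1, heme oxygenase, at 1.37, TFRC, the transferrin receptor, at 1.22 and GCH1 at -1.39 (adjusted p = 0.0165, 0.0105 and 0.0150).

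A list of 7 genes held NRF2 itself, its regulators and partners, and 1 target enzyme, NQO1. Of these 7, 0 passed in either A549 knockout comparison, beside 10.8% and 13.2% of all genes. An unadjusted limma p under 0.05 was found for 0 and 4 of the 7. The authors' deposited table gives 0 of 7 in the A549 knockout in normal culture and 1 lower in oncosphere culture, MAFK, a small MAF partner of NRF2, at -1.65 (adjusted p = 0.0436). There 22.1% and 20.7% of all genes passed. For the H2023 knockout the authors' deposited table gives 1 lower in normal culture, NFE2L2, the gene of NRF2 itself, at -0.49 (adjusted p = 0.00152). It gives 1 higher in oncosphere culture, BACH1, a repressor at NRF2 sites, at 1.02 (adjusted p = 4.19e-04), where 5.07% of all genes passed. In that table the H2023 knockout in normal culture had 5 of 14 glutathione synthesis genes lower, 5 of 14 transferases, 6 of 17 selenoproteins and 4 of 15 peroxide enzymes, with 0 higher in each, where 10.8% of all genes passed.
With oncosphere culture 3 of the 7 genes passed in the A549 wild type, near the 40.6% of all genes. BACH1 was higher by 0.89 (limma, adjusted p = 0.00679), KEAP1, which marks NRF2 for degradation, stood at -0.87 (adjusted p = 0.00793) and NFE2L2 at -0.37 (adjusted p = 0.0127). In the A549 knockout BACH1 alone passed, at 0.66 (limma, adjusted p = 0.0424), and in the H2023 wild type KEAP1 alone, at -0.45 (adjusted p = 0.0241). In the H2023 knockout BACH1 stood at 1.20 and KEAP1 at -0.44 (limma, adjusted p = 0.00468 and 0.0220). The shares of all genes that passed in these comparisons were 20.8%, 21.4% and 26.9%, in that order.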

How the data were processed

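RNA-seq libraries of A549 and H2023 cells (8 groups, 2 libraries each) were built with a stranded mRNA kit, per the labels' protocols. HISAT2, StringTie and the build GRCh38 are named in the submitters' processing notes, without versions. The authors deposited 4 tables, each for 1 line and culture, with TPM per library. Beside these the authors deposited a mean normalised count over the 4 libraries (a signal), a log2 fold change with its standard error, a test statistic (a score) and p-values, in columns named as DESeq2 names them. In the deposited score the sign is opposite to that of the log2 fold change, so directions came from the fold change. TPM sums were 991838 to 998125 per library, and TPM does not keep the read depth.

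Here 18227 genes were used. Of 18361 rows, 119 identifiers stood on several, and the first was kept. Fold changes and tests came from limma 3.58.1 (R 4.3.3), fitted to log2(TPM + 1) with the variance trended on the mean. This is a scale that understates changes of low genes. Tests were two-sided, without a filter, with Benjamini-Hochberg adjustment over all genes and a threshold of 0.05. Knockout comparisons used their 4 libraries, culture comparisons the 8 of the line and line comparisons the 8 of the culture. The difference between cultures used the authors' deposited fold changes. The code was tested on simulated data. The members and the gene lists were chosen with earlier results of these data known. Named list genes are up to 3 per list and comparison with the largest fold change among those that passed. The alternatives were another pseudocount (0.1), a filter at a mean of 1 TPM, no trend, TPM without mitochondrial genes, centring, a replicate block, leaving out each library, the 8 libraries of the line and the authors' deposited values. GPX1 has annotated pseudogenes, and GPX2 and GPX8 overlap genes on the other strand, so reads may be shared.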

Additional observations from a re-analysis of the deposited data

Results flagged for a closer look

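A difference of the knockout effect between the 2 cultures was found for 1 of the 4 tested members, GPX8, in A549, where 8.31% of all genes passed that test, and for none in H2023, where 0.39% passed. In A549 the authors' deposited log2 fold change of GPX8 was lower in oncosphere than in normal culture by 0.76, a difference of -0.76 (adjusted p = 0.00848), while the interaction on log2(TPM + 1) was -0.43 with a limma adjusted p of 0.122, and did not pass. For GPX2 the difference was 2.00 in A549 and 2.75 in H2023. GPX2 was picked for its pattern over these groups, so its differences carry no test.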

How the results depend on the processing

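The 60 member fold changes were recomputed under the alternatives, giving 650 values; 580 stayed on their side of the threshold or, for GPX2, within the replicate spread, and 24 turned sign, 20 of them on leaving out 1 library. The counts of the 4 tested members that passed were least stable. In the A549 knockout in normal culture the count went from 0 to 1 in the authors' deposited table and to 1 over the 8 libraries of the line. In A549 oncosphere culture it went from 1 to 0 over the 8 libraries, and was 0 to 0 when single libraries were left out. For culture in the H2023 wild type it went from 1 to 2 with the filter and 0 to 1 on leaving out libraries, and in the H2023 knockout it was 1 to 2. Between lines in oncosphere culture it went from 2 to 1 without the trend and 1 to 2 on leaving out libraries. The A549 difference between cultures went from 1 to 0 with the limma interaction and 0 to 0 on leaving out libraries. Signs turned for GPX3 in the A549 knockout in normal culture (0.030 centred, 0.028 without mitochondrial genes, 0.17 in the authors' deposited table, -0.16 to 0.15 on leaving out libraries). On leaving out libraries the ranges that cross 0 for the knockout were -0.10 to 0.39 for GPX4 in A549 normal culture, -0.15 to 0.042 for GPX8 in A549 oncosphere culture and -0.20 to 0.16 for GPX1 in H2023 normal culture. In H2023 oncosphere culture they were -0.036 to 0.55 for GPX2, -0.29 to 0.26 for GPX4 and -0.14 to 0.49 for GPX8. For culture they were -0.12 to 0.078 for GPX4 in the A549 wild type (0.12 without mitochondrial genes) and -0.092 to 0.43 for GPX8 in the H2023 wild type, and between lines -0.094 to 0.067 for GPX2 in normal culture. For the difference between cultures they were -0.00062 to 0.65 for GPX1 in A549, and -0.017 to 0.34 for GPX1 and -0.12 to 0.43 for GPX4 in H2023, where it was -0.0019 without the wild-type normal replicate 2. The cause was not tested.

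The labels give no meaning to the replicate numbers that groups share. Deviations of same-numbered libraries correlated at -0.03 to 0.46 across 14823 genes, highest for the H2023 oncosphere knockout comparison, and with 2 numbers a group this does not show pairing. With the replicate block the count of members passed went to 3 for culture in the H2023 wild type and to 1 between lines in oncosphere culture. For the A549 difference between cultures the block was tried only on the limma interaction, which passed 0 members. GPX8 had a limma adjusted p of 0.139 with the block and 0.122 without it.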
